A study of Mus musculus with 16 samples.

Results

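MiRNA levels in whole lungs of allergic mice given dexamethasone (OVA/OVA DEX) were compared with those in lungs of mice that had been challenged with ovalbumin but never sensitised to it (PBS/OVA). The comparison rests on 8 of the 16 arrays of the series, 4 for each group, chosen by their labels. It asks which miRNAs stay above or fall below the level of challenged, non-allergic lung when allergic mice receive the steroid. Of the 611 mouse miRNAs on the array, 338 were detected on at least 1 array, and the test covered the 266 with a detection flag throughout 1 or more of the groups.

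All mice were specific pathogen-free BALB/c mice of 8 to 12 weeks, and no genetic modification is described. The OVA/OVA DEX mice were sensitised by intraperitoneal injection of 50 μg ovalbumin (OVA, the egg white allergen) with 1 mg Alhydrogel on day 0, whereas the PBS/OVA mice received 1 mg Alhydrogel without the allergen. Both groups were challenged through the nose with 10 μg OVA on days 12, 13, 14 and 15. The OVA/OVA DEX mice also received dexamethasone (DEX, a synthetic glucocorticoid), injected at 3 mg/kg on day 11 and every second day after that, 1 hour before the challenge. No steroid is given in the labels of PBS/OVA. Lungs were taken on day 16, that is 24 hours after the final dose of allergen. The groups differ in both sensitisation and steroid, and the contributions of these treatments cannot be told apart here. Arrays of sensitised and challenged mice without steroid (OVA/OVA, 6 arrays) and of mice that met no allergen (PBS/PBS, 2 arrays) shared the model and are named where their levels place a result.

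MiRNAs are short RNAs that guide Argonaute proteins to messenger RNAs and lower their translation or stability. Pairing rests mainly on the seed near the 5′ end, so miRNAs with the same seed can share targets. Several mark cell types of the lung. MiR-449 and miR-34b/c are known from ciliated epithelium, miR-451a and miR-144 from red cells, miR-223 from neutrophils and other myeloid cells, and miR-126 from endothelium. MiR-146 and miR-155 are induced in immune cells by inflammatory signals, and miR-146 acts as a brake on that signalling. Glucocorticoids dampen inflammatory transcription and reduce airway eosinophilia in allergic lung.

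Mature sequences were taken from RefSeq (GRCm38.p6), which held an entry for 5 of the 6 miRNAs that differed between the groups and for 210 of the 266 tested. They are shown for those 5, for tested miRNAs sharing a seed with them, and for miR-223-3p and a pair of the miR-30 family, which are described below. Bases 2 to 8, the seed, are in capitals.
miR-139-5p: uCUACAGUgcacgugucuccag
miR-449a-5p: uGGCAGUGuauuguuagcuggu
miR-449c-5p: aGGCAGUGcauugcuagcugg
miR-34a-5p: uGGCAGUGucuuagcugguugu
miR-34b-5p: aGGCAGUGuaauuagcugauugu
miR-146b-5p: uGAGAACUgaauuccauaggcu
miR-146a-5p: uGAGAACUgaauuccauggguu
miR-342-3p: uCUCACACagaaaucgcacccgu
miR-324-5p: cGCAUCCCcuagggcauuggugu
miR-223-3p: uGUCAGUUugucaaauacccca
miR-30a-5p: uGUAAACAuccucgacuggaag
miR-30c-5p: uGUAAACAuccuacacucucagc
MiR-449a-5p, miR-449c-5p, miR-34a-5p and miR-34b-5p share 1 seed, and miR-146a-5p shares its seed with miR-146b-5p. In GRCm38.p6, miR-139-5p lies at chr7:101475382-101475403 (plus strand) within Pde2a, miR-449a-5p at chr13:113037549-113037570 (plus) within Cdc20b, and miR-342-3p at chr12:108658680-108658702 (plus) within Evl. MiR-324-5p lies at chr11:70012060-70012082 (plus) within the span of Acadvl, and miR-146b-5p at chr19:46342790-46342811 (plus) within the long non-coding RNA Gm36493. Gene spans alone were used, so exons and introns were not distinguished.

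Between 224 and 271 mouse miRNAs were detected on the OVA/OVA DEX arrays and between 251 and 277 on the PBS/OVA arrays, with means of 245.75 ± 20.1 and 265 ± 11.2 (SD, n = 4 each; exact permutation test, two-sided p = 0.2). The summed signal before scaling ranged from 499733 to 638811 and from 493063 to 718149 (exact permutation p = 0.514). The smallest p that 4 arrays against 4 allow is 0.0286. Of the PBS/OVA arrays, replicate 2 stood furthest from its group, with 34 of 266 miRNAs at least 2-fold away from the average of the remaining PBS/OVA replicates, against 8 to 26 for the others. OVA/OVA DEX replicate 3, with 26, was the furthest in its own group. Results are therefore given with all arrays and without PBS/OVA replicate 2. By Euclidean distance over the 266 log2 levels, replicate 4 of either group lay nearer the mean of the other group than the rest of its own. The distances were 8.16 against 12.29 for PBS/OVA replicate 4 and 8.95 against 10.86 for OVA/OVA DEX replicate 4. PBS/OVA replicate 2 lay 12.92 from the rest of its group. The arrays lay on 2 slides, each with 2 arrays of either group. The labels number the replicates but do not say that each was a separate animal, so p-values measure the spread between these samples. Whole lung was used, and fewer cells of a type cannot be told apart from less RNA per cell.

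Few miRNAs differed between steroid-treated allergic lung and challenged, non-allergic lung. In all, 6 passed the test, namely 5 that were lower in OVA/OVA DEX (miR-135b-5p, miR-449a-5p, miR-342-3p, miR-146b-5p and miR-324-5p) and 1 that was higher (miR-139-5p). These were 2.26% of the 266 miRNAs tested (1.88% lower and 0.376% higher; limma, adjusted p under 0.05). Only miR-135b-5p and miR-449a-5p also differed by at least 2-fold (0.752%). Without PBS/OVA replicate 2, 5 of the 6 passed (1.88%), and no other miRNA did. The count was 10 without OVA/OVA DEX replicate 4. For 203 of the 266 miRNAs (76.3%), the 95% confidence interval of the difference lay within 2-fold in either direction. For the rest the interval reached 2-fold or beyond. The arrays of the groups did not overlap for 41 miRNAs (15.4%), 21 higher and 20 lower in OVA/OVA DEX. Against the same PBS/OVA arrays, 84 miRNAs (31.6%) passed in untreated OVA/OVA lung, and 142 (53.4%) passed between OVA/OVA and OVA/OVA DEX. An unadjusted p under 0.05 was seen for 59 miRNAs (22.2%), 37 higher and 22 lower in OVA/OVA DEX. Across all 266, the median log2 difference (OVA/OVA DEX minus PBS/OVA) was 0.04 and 151 differences were above 0. The split of 1 higher and 5 lower became 0 and 4 with quantile normalization, and 0 and 3 without scaling or with normexp background correction. The authors' processed values gave 3 and 3, but over a smaller set of 151 miRNAs. MiR-135b-5p and miR-139-5p were not in that set, so the 2 splits cannot be compared directly.

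**Figure D1:**
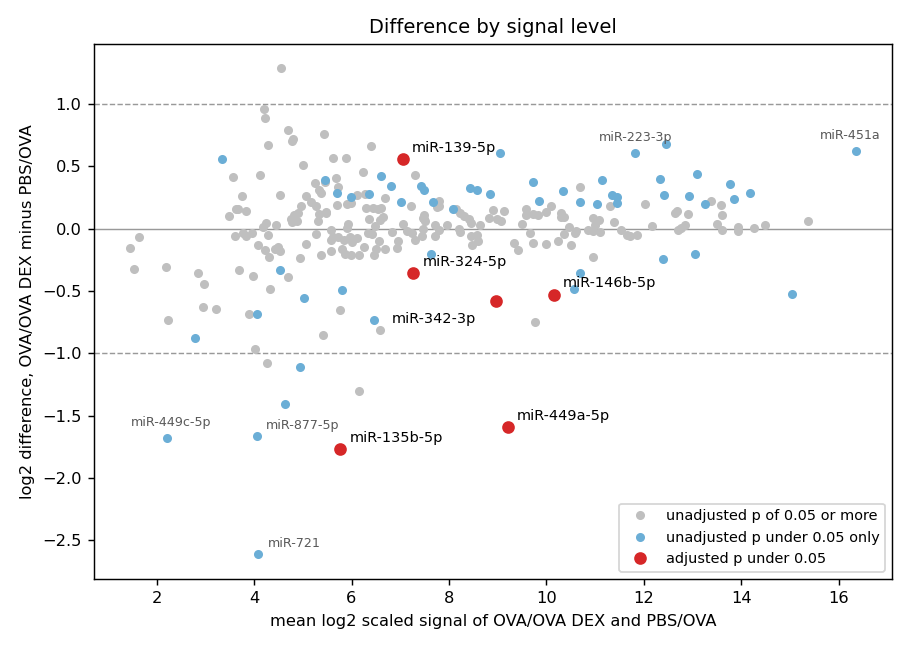
Log2 difference (OVA/OVA DEX minus PBS/OVA) against the mean log2 scaled signal of both groups for 266 miRNAs, each point 1 miRNA; dashed lines mark 2-fold. The 6 miRNAs that passed (red) include 5 below 0 and 1 above, and miR-721, undetected in OVA/OVA DEX, lies lowest without passing.

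MiR-135b-5p had the largest difference among the miRNAs that passed. On a log2 scale of scaled signal, in which 1 unit is a doubling, it measured 4.90, 4.74, 5.30 and 4.60 on the OVA/OVA DEX arrays and 6.36, 6.51, 6.39 and 7.35 on the PBS/OVA arrays. Every steroid array lay below every PBS/OVA array. The difference was -1.77 ± 0.25 (SE, n = 4 per group; adjusted p = 0.00196), or 3.40-fold lower. It was -1.81 without PBS/OVA replicate 2 (adjusted p = 0.00662), and -1.70 and -1.83 on slides 1 and 2. The mean in OVA/OVA DEX, 4.88 ± 0.30 (SD), was close to the PBS/PBS mean of 4.84 and below the OVA/OVA mean of 7.07 ± 0.31. Challenged lungs without steroid, sensitised or not, were thus the high ones for this miRNA. With normexp background correction the difference was -0.45 and did not pass (adjusted p = 0.422).

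MiR-449a-5p, a miRNA of multiciliated cells, measured 8.37, 8.42, 8.60 and 8.26 in OVA/OVA DEX and 10.32, 10.62, 9.26 and 9.81 in PBS/OVA. The steroid arrays were tightly grouped and all lay below the PBS/OVA arrays, which spread over more than 1 log2 unit. The difference was -1.59 ± 0.30 (SE; adjusted p = 0.00781), or 3.01-fold lower, and -1.38 without PBS/OVA replicate 2 (adjusted p = 0.0345). It was -1.63 and -1.56 on slides 1 and 2. The OVA/OVA DEX mean of 8.41 ± 0.14 (SD) was also the lowest of the 4 groups, with PBS/PBS at 9.49, PBS/OVA at 10.00 ± 0.60 and OVA/OVA at 10.45 ± 0.48. The levels in PBS/OVA and OVA/OVA did not differ beyond their spread (log2 difference 0.45, adjusted p = 0.216).

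MiR-146b-5p, whose known targets include adaptors of Toll-like receptor signalling, measured 9.98, 9.75, 9.93 and 9.86 in OVA/OVA DEX and 10.27, 10.61, 10.28 and 10.48 in PBS/OVA. The groups did not overlap. The log2 difference was -0.53 ± 0.10 (SE; adjusted p = 0.00781), 1.44-fold lower, and -0.46 without PBS/OVA replicate 2 (adjusted p = 0.0345). It was -0.52 on slide 1 and -0.53 on slide 2. The call was lost with quantile normalization (adjusted p = 0.0756), with the percentile taken over all mouse miRNAs (0.242) and without scaling (0.877). The mean of 9.88 in OVA/OVA DEX compares with 9.85 in PBS/PBS and 10.85 in OVA/OVA.

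MiR-342-3p, found mainly in haematopoietic cells, measured 8.65, 8.73, 8.88 and 8.48 in OVA/OVA DEX and 9.17, 9.39, 9.12 and 9.38 in PBS/OVA. All steroid arrays were again the lower ones. The log2 difference was -0.58 ± 0.11 (SE; adjusted p = 0.00781), and -0.54 without PBS/OVA replicate 2 (adjusted p = 0.0352). The OVA/OVA DEX mean of 8.68 was the lowest of the 4 groups, with 9.13 in PBS/PBS and 9.59 in OVA/OVA. With OVA/OVA DEX and PBS/OVA alone in the fit, miR-449a-5p (adjusted p = 0.0502), miR-146b-5p and miR-342-3p (both 0.0579) no longer passed in limma. MiR-342-3p also lost its call with the percentile over all mouse miRNAs (adjusted p = 0.165) and without scaling (0.862). The other arm of its hairpin, miR-342-5p, was also below in every steroid array, at 3.31 to 4.11 against 4.30 to 4.55, but was detected on only 2 of the 4 OVA/OVA DEX arrays. Its log2 difference of -0.68 (95% CI -1.07 to -0.30) did not pass (adjusted p = 0.0677) and was 0.14 with normexp background correction.

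MiR-324-5p had the smallest difference of those that passed. It measured 7.21, 7.20, 7.15 and 6.79 in OVA/OVA DEX and 7.43, 7.51, 7.43 and 7.41 in PBS/OVA. The log2 difference was -0.36 ± 0.09 (SE; adjusted p = 0.0492), 1.28-fold lower. It did not pass without PBS/OVA replicate 2 (-0.33, adjusted p = 0.0912) or with slide as a block (adjusted p = 0.0513). It passed under 11 of 29 alternative settings. The mean was 7.45 in PBS/OVA and 7.38 in OVA/OVA.

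MiR-139-5p, encoded within the phosphodiesterase gene Pde2a, was the single miRNA that passed in the other direction. It measured 7.35, 7.27, 7.45 and 7.24 in OVA/OVA DEX and 6.78, 6.59, 6.84 and 6.86 in PBS/OVA. The lowest steroid array exceeded the highest PBS/OVA array. The log2 difference was 0.56 ± 0.10 (SE; adjusted p = 0.00655), 1.47-fold higher, and 0.50 without PBS/OVA replicate 2 (adjusted p = 0.0266). The slides gave 0.58 and 0.54. Untreated allergic lung held a similar level, 7.39 ± 0.15 in OVA/OVA, which was 0.62 above PBS/OVA (adjusted p = 0.00032). The call was lost with quantile normalization (0.48, adjusted p = 0.0756), without scaling (0.33) and with normexp (0.33). It was also lost with the percentile taken over all mouse miRNAs (0.54, adjusted p = 0.242). The opposite arm, miR-139-3p, measured 3.61 to 4.51 in OVA/OVA DEX and 4.04 to 5.38 in PBS/OVA, with a log2 difference of -0.48 (95% CI -1.80 to 0.83; adjusted p = 0.757) that was 0.09 with normexp.

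**Figure D2:**
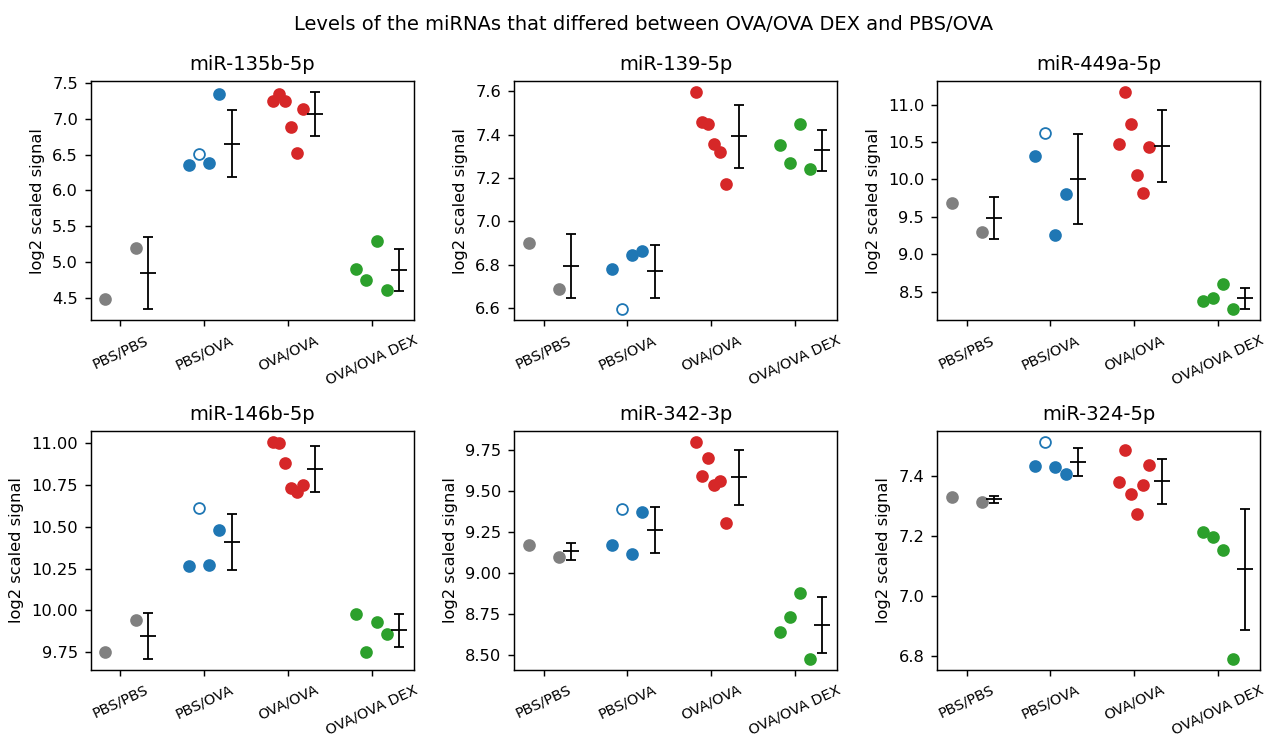
Log2 scaled signal of the 6 miRNAs that passed, 1 point per array in the 4 groups, with the group mean and SD in black; the open circle is PBS/OVA replicate 2. OVA/OVA DEX and PBS/OVA arrays do not overlap in any panel, and for miR-139-5p the OVA/OVA DEX arrays lie among the OVA/OVA arrays.

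Of the 266 miRNAs tested, 13 went undetected throughout OVA/OVA DEX, and 4 of the 13 were detected on every PBS/OVA array. The reverse count, undetected throughout PBS/OVA, is not given here. Described below are 4 of the 13 that belong to the study's list or to the miR-449 family. MiR-721 measured 2.68, 1.38, 3.34 and 3.74 in OVA/OVA DEX and 4.45, 8.01, 4.95 and 4.18 in PBS/OVA, where it was detected on 2 of 4 arrays. PBS/OVA replicate 2 held by far the highest value. With steroid signals raised as described below, its PBS/OVA mean was 4.49-fold higher with that array and 2.46-fold without it. In the latter case, 1 of the 3 arrays left detected miR-721. PBS/OVA arrays without detection entered at their own signal, so these folds are not lower bounds. The difference did not pass (adjusted p = 0.0677, and 0.128 without replicate 2). Over the alternative settings, the log2 difference of miR-721 ranged from -3.27 to -0.14. MiR-877-5p was detected on PBS/OVA replicate 2 and on no other array of either group, so no fold is given. It measured 3.86, 1.54, 3.66 and 3.85 in OVA/OVA DEX and 4.61, 5.80, 4.46 and 4.70 in PBS/OVA (adjusted p = 0.0677). MiR-680 was detected on all 4 PBS/OVA arrays at 4.62 to 6.79. Its mean was 2.65-fold higher there (adjusted p = 0.131), or 1.90-fold without replicate 2. Its own signal on each steroid array was not under the lowest detected one. These are therefore folds between means and not lower bounds. MiR-449c-5p, from the same locus as miR-449a-5p, was at the floor of 1.38 on every OVA/OVA DEX array and measured 4.15, 4.21, 1.95 and 1.94 in PBS/OVA. Detected on all 4 PBS/OVA arrays, it was at least 1.43-fold higher there, or 1.10-fold without replicate 2 (adjusted p = 0.183). For miR-877-5p, miR-680 and miR-449c-5p the sign of the difference turned with normexp background correction. The folds of miR-721 and the bounds of miR-449c-5p set the PBS/OVA mean against, on each steroid array, the higher of the lowest detected signal and the miRNA's own signal.

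MiRNAs induced by inflammation lay mostly below PBS/OVA. Of the 8 listed, 7 had differences below 0 with a median of -0.37, against 0.04 for all miRNAs tested, although 5 did with normexp. MiR-146b-5p alone passed. MiR-155-5p, which T cells and macrophages induce on activation, measured 5.82, 5.64, 6.57 and 6.33 in OVA/OVA DEX and 6.55, 7.02, 6.46 and 7.25 in PBS/OVA. The groups overlapped slightly, and the log2 difference of -0.73 (95% CI -1.36 to -0.10) did not pass (adjusted p = 0.159). In untreated OVA/OVA lung its mean was 8.69. MiR-21a-5p, abundant in inflamed and remodelling tissue, measured 14.86, 14.53, 15.11 and 14.59 in OVA/OVA DEX and 14.98, 15.77, 15.12 and 15.32 in PBS/OVA, a log2 difference of -0.52 (95% CI -0.94 to -0.10; adjusted p = 0.152), with OVA/OVA at 16.22. MiR-146a-5p, with the seed of miR-146b-5p, ranged from 10.38 to 10.61 in OVA/OVA DEX and from 10.58 to 11.15 in PBS/OVA. Its log2 difference was -0.35 (95% CI -0.62 to -0.09; adjusted p = 0.131), and -0.45 without PBS/OVA replicate 2, the lowest PBS/OVA array for this miRNA (adjusted p = 0.0721). Unlike miR-155-5p and miR-21a-5p, miR-146a-5p was not high in OVA/OVA. Its mean there was 10.58, near 10.52 in OVA/OVA DEX and below 10.87 in PBS/OVA. MiR-221-3p, which acts on cell growth, differed by -0.11 (95% CI -0.32 to 0.10).

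MiR-223-3p, the myeloid miRNA, went the other way. It measured 12.11, 12.25, 12.39 and 11.72 in OVA/OVA DEX and 11.52, 11.38, 11.63 and 11.52 in PBS/OVA. Every steroid array lay above every PBS/OVA array, while the OVA/OVA mean was higher still at 12.63. The log2 difference of 0.61 (95% CI 0.24 to 0.97) did not pass (adjusted p = 0.0677). It passed without OVA/OVA DEX replicate 4, the lowest steroid array (0.74, adjusted p = 0.0275). Of the 6 haematopoietic miRNAs, 3 lay above and 3 below PBS/OVA, with a median of 0.04. Without PBS/OVA replicate 2, 1 lay above and 5 below, with a median of -0.15. The log2 of the summed signal of the 6 spanned 14.17 to 14.73 in OVA/OVA DEX and 14.00 to 14.57 in PBS/OVA. MiR-142-3p, at 13.67 to 14.25 and 13.54 to 14.19, made up the largest share of it.

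**Figure D3:**
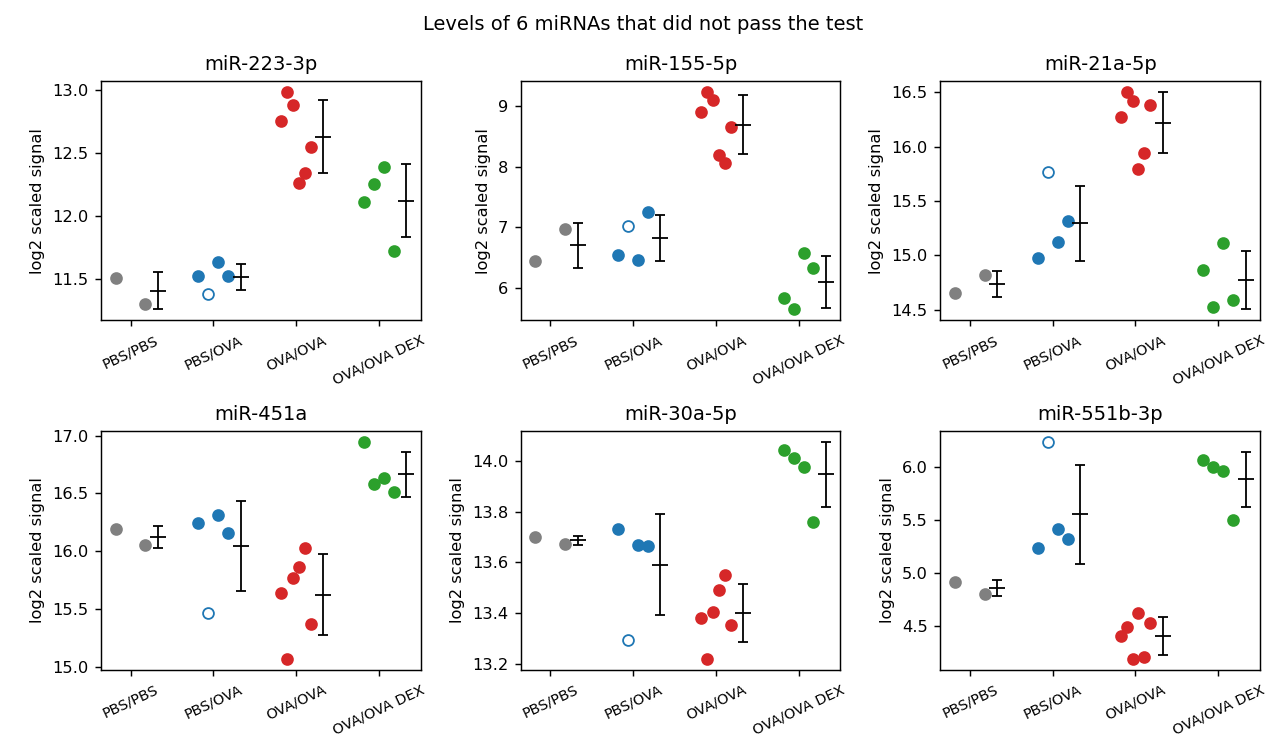
Log2 scaled signal of 6 miRNAs that did not pass, 1 point per array, with group mean and SD in black and PBS/OVA replicate 2 as an open circle. For miR-155-5p and miR-21a-5p the OVA/OVA arrays stand above both groups, whereas for miR-451a, miR-30a-5p and miR-551b-3p they stand below OVA/OVA DEX.

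The red cell miRNAs were the list furthest above PBS/OVA. All 3 tested, miR-451a, miR-144-3p and miR-486-5p, had differences above 0, with a median of 0.62 (0.43 without PBS/OVA replicate 2), and none passed. MiR-451a measured 16.95, 16.58, 16.63 and 16.51 in OVA/OVA DEX and 16.25, 15.46, 16.31 and 16.16 in PBS/OVA, so that the groups did not overlap. Its log2 difference was 0.62 (95% CI 0.16 to 1.08; adjusted p = 0.131), and 0.43 without PBS/OVA replicate 2, the lowest array (adjusted p = 0.35). MiR-144-3p, from the same primary transcript, differed by 0.68 (95% CI 0.20 to 1.16) and miR-486-5p by 0.61 (95% CI 0.18 to 1.03), both with adjusted p = 0.131. OVA/OVA means were below those of PBS/OVA for all 3, at 15.62 against 16.04 for miR-451a. The log2 of the summed signal of the list spanned 16.62 to 17.06 in OVA/OVA DEX and 15.56 to 16.42 in PBS/OVA. The part of red cell miRNAs in other results was not tested.

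The ciliated cell miRNAs divided by family. MiR-449a-5p and miR-449c-5p lay below PBS/OVA, as given above, and miR-449b was not detected in either group. The 4 miRNAs of the miR-34b/c pair lay above it, by 0.20 to 0.56 on the log2 scale (3 of the 4 without scaling), and did not pass. MiR-34c-5p measured 10.67, 10.36, 10.53 and 10.37 in OVA/OVA DEX and 10.07, 10.25, 10.28 and 10.10 in PBS/OVA, with no overlap and a log2 difference of 0.31 (95% CI 0.12 to 0.49; adjusted p = 0.0677). MiR-34a-5p, which is broadly expressed and has the seed of miR-449a-5p, measured 10.52, 10.47, 10.47 and 9.85 in OVA/OVA DEX and 10.71, 11.04, 10.80 and 10.70 in PBS/OVA. Its log2 difference was -0.48 (95% CI -0.77 to -0.19; adjusted p = 0.0677), and -0.41 without PBS/OVA replicate 2 (adjusted p = 0.189). MiR-34b-5p, with the same seed, ranged from 10.91 to 11.32 in OVA/OVA DEX and from 10.87 to 11.01 in PBS/OVA, a log2 difference of 0.20 (adjusted p = 0.176) that was -0.03 without scaling. Thus the steroid arrays were below PBS/OVA for miR-34a-5p and above it for miR-34c-5p. Over the 6 ciliated cell miRNAs tested, the median difference was 0.25.

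Epithelial miRNAs of the miR-200 family and its neighbours gave a median of -0.04 (0.02 with normexp), with 2 of 7 above 0 and a range from -0.23 to 0.18. The fibroblast miRNAs ranged from -0.03 to 0.08 over 4 members. Striated muscle miRNAs, abundant in heart, ranged from -0.02 to 0.27 over 4. MiR-126-3p of endothelium was among the brightest miRNAs, at 15.24 to 15.50 in OVA/OVA DEX and 15.18 to 15.46 in PBS/OVA, and differed by 0.06 (95% CI -0.14 to 0.25), or -0.17 without scaling. The smooth muscle miRNAs all lay above 0, with a median of 0.42 over 3. Among them, miR-145a-5p differed by 0.42 (95% CI 0.09 to 0.75) and miR-143-3p by 0.26 (95% CI 0.06 to 0.45), both with adjusted p = 0.141. Of the 4 miRNAs of neurons and liver, none met the detection filter. None of the members of these lists passed.

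Families with shared seeds showed small differences. All 5 members of the miR-30 family lay above PBS/OVA, by 0.20 to 0.40, and for 4 of them the groups did not overlap (against 15.4% of all miRNAs tested). MiR-30a-5p measured 14.04, 14.01, 13.98 and 13.76 in OVA/OVA DEX and 13.73, 13.29, 13.67 and 13.67 in PBS/OVA, a log2 difference of 0.36 (95% CI 0.14 to 0.58; adjusted p = 0.0677), and miR-30c-5p differed by 0.40 (adjusted p = 0.175). Without PBS/OVA replicate 2, the lowest array for both, the values were 0.26 and 0.27. The 3 miR-29 miRNAs, which target collagen messengers, lay 0.22 to 0.44 above (0.13 to 0.33 without that array), and miR-29b-3p led them (95% CI 0.17 to 0.71; adjusted p = 0.0677). Without scaling between arrays, where the median of all 266 was -0.18, 2 of the 5 miR-30 and 2 of the 3 miR-29 differences remained above 0. The 9 let-7 miRNAs had a median of 0.01, which was -0.08 with quantile normalization, -0.02 with normexp, -0.0086 with the percentile over all mouse miRNAs and -0.21 without scaling. Let-7b-5p measured 13.39 to 13.93 in OVA/OVA DEX and 13.47 to 13.73 in PBS/OVA, a difference of -0.01 (95% CI -0.33 to 0.31), and let-7i-5p was the sole member without overlap (-0.21, adjusted p = 0.131).

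Of the miRNA clusters, 6 of 7 miRNAs of the miR-17 cluster lay above 0 (median 0.13; 1 of 7 without scaling), the exception being miR-18a-5p at -0.15 (95% CI -0.55 to 0.26). The miR-106b cluster gave 0.13 to 0.16 over 3 miRNAs, and -0.10 to -0.07 without scaling. The miR-23/27/24 clusters had a median of 0.12 (-0.11 without scaling), and the miR-183 cluster one of -0.08 (0.09 with normexp). The miR-188 cluster had a median of -0.09 (0.09 with normexp), and its widest difference came from miR-188-5p, at 8.20 on PBS/OVA replicate 2 and 4.96 to 5.14 on the other PBS/OVA arrays. The difference for miR-188-5p was -0.85 with that array and -0.06 without it. The miR-15/16 family had a median of -0.05. The imprinted Dlk1-Dio3 locus, a large cluster most active in development, had 8 of its 29 arrayed miRNAs tested, and 7 of them lay below 0 (median -0.48), whereas with normexp 7 lay above 0. Without PBS/OVA replicate 2 the median was -0.21, with 3 above and 5 below. No member of the families, clusters and imprinted locus in this and the preceding paragraph passed.

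**Figure D4:**
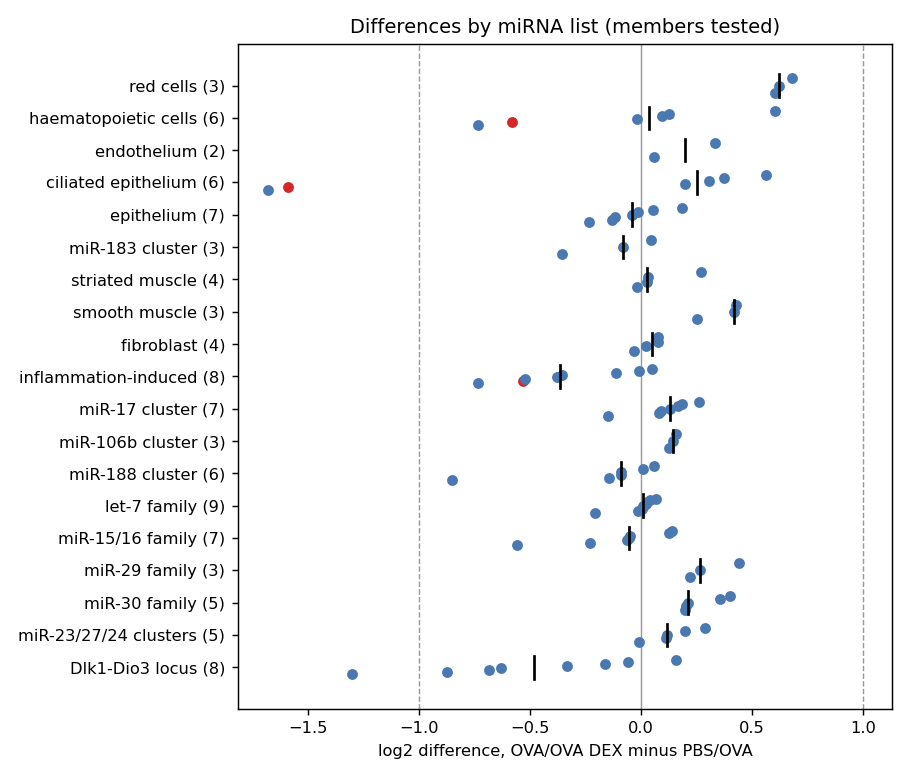
Log2 difference (OVA/OVA DEX minus PBS/OVA) of the tested members of 19 miRNA lists, 1 point per miRNA, with the list median as a black bar, the number tested in brackets and members that passed in red. Red cell miRNAs have a median of 0.62 (0.43 without PBS/OVA replicate 2), and the Dlk1-Dio3 locus one of -0.48 (-0.21 without that replicate, 0.15 with normexp).

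The study listed 29 miRNAs as altered between groups of these same samples, so their directions are not independent evidence. All 29 were tested, and 10 lay above and 19 below PBS/OVA in OVA/OVA DEX, with a median of -0.18 (19 above and 10 below with normexp). Without PBS/OVA replicate 2, 12 lay above and 17 below, with a median of -0.06. The 2 that passed, miR-135b-5p and miR-449a-5p, were both lower. The groups did not overlap for 9 of the 29 (against 15.4% of all miRNAs tested), and 6 differed by at least 2-fold between means (3.76% of all). Of the members that did not pass, miR-144-3p lay highest at 0.68. MiR-135a-1-3p measured 4.55, 3.55, 4.73 and 4.71 in OVA/OVA DEX and 5.41, 6.48, 5.01 and 5.07 in PBS/OVA, a log2 difference of -1.11 (95% CI -1.91 to -0.30; adjusted p = 0.131) that was -0.78 without PBS/OVA replicate 2 and 0.04 with normexp. For several, OVA/OVA was far from both groups. MiR-18a-5p averaged 7.43 in OVA/OVA, 6.18 in OVA/OVA DEX and 6.33 in PBS/OVA.

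**Figure D5:**
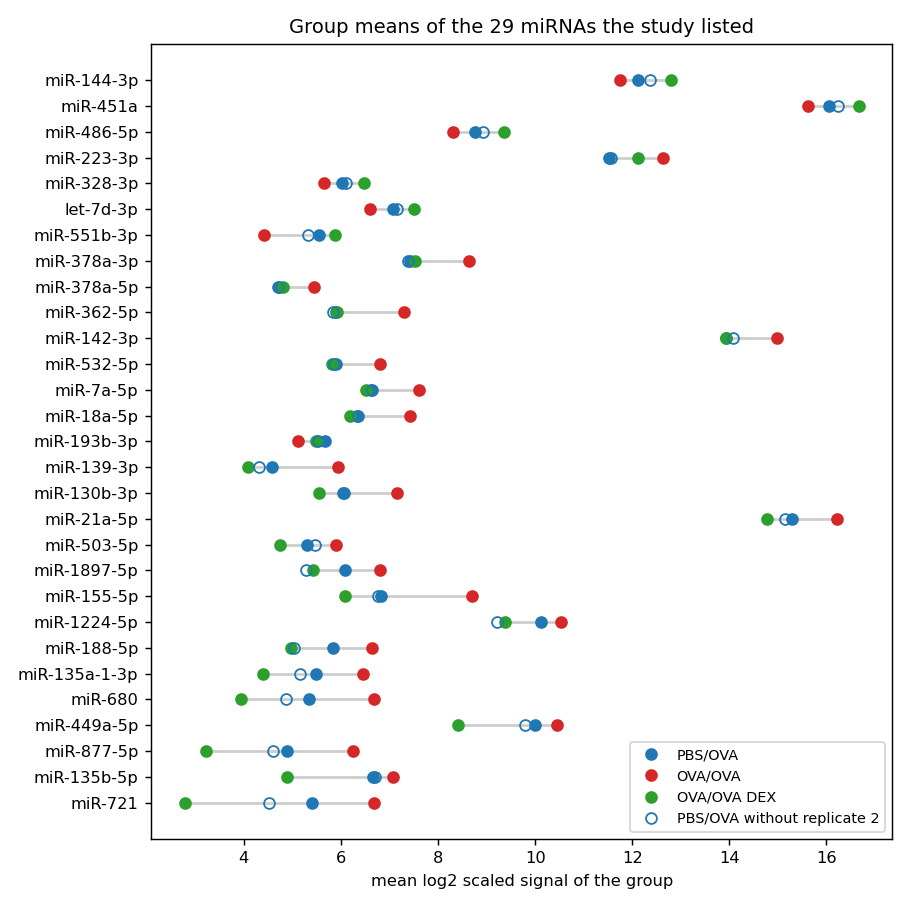
Mean log2 scaled signal of 3 groups (OVA/OVA DEX, PBS/OVA and OVA/OVA) for the 29 listed miRNAs, ordered by the difference between OVA/OVA DEX and PBS/OVA, with the PBS/OVA mean without replicate 2 as an open circle. MiR-721, undetected in OVA/OVA DEX, and miR-135b-5p head the lower end and miR-144-3p the upper, and for miR-18a-5p the OVA/OVA mean lies apart from the other groups.

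Leaving out PBS/OVA replicate 2 brought a few miRNAs closer to the threshold. MiR-551b-3p measured 6.07, 6.00, 5.96 and 5.51 in OVA/OVA DEX and 5.24, 6.24, 5.41 and 5.32 in PBS/OVA. Replicate 2 was the highest of all 8 arrays, and the other PBS/OVA arrays lay below every steroid array. The log2 difference was 0.33 (95% CI -0.09 to 0.76; adjusted p = 0.361) with it and 0.56 (adjusted p = 0.0692) without it, and OVA/OVA averaged 4.41. MiR-503-5p, of the miR-15/16 family, measured 4.80, 4.55, 4.35 and 5.29 in OVA/OVA DEX and 5.61, 4.83, 5.33 and 5.45 in PBS/OVA. Its log2 difference moved from -0.56 (adjusted p = 0.141) to -0.71 (adjusted p = 0.0912), and it was -0.03 on slide 1 and -1.08 on slide 2. Neither passed in either form, though miR-503-5p passed without OVA/OVA DEX replicate 4 (-0.74, adjusted p = 0.0416).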

How the data were processed

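Total RNA of whole lung was labelled with Cy3 and hybridised to 1-colour Agilent mouse miRNA arrays. The authors deposited the spot intensity of each array from Agilent Feature Extraction 10.7.3.1 (submitters' processing notes), corrected for local background but not normalized across arrays. They also deposited detection flags and processed log2 values. The scaling of the log2 values is not given in the sources used here; they were used as an alternative for 151 tested miRNAs that matched the scanner output within 0.15. Control spots were left out, and of the remaining 13000 spots per array (0 saturated), outlier-flagged ones were dropped. Replicate spots were averaged per probe, and probe values were added up per miRNA. As scaling, the signals were divided by the 75th percentile, per array, of 206 mouse miRNAs with a detection flag throughout, so a change shared by most miRNAs would be removed. Signals under 2.60, the median over arrays of the lowest detected signal, were set to it, and log2 was taken.

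Group means of all 16 arrays were fitted with limma 3.58.1 in R 4.3.3 (empirical Bayes), with Benjamini-Hochberg adjustment over 266 miRNAs, and passing means an adjusted p under 0.05. Array totals were compared by an exact permutation test. Tables and plots used Python 3.11.15, pandas 2.3.3 and matplotlib 3.10.9. The text names the miRNAs that passed, the miRNAs the study listed or named, and members of the lists as examples. They, and the lists, were chosen with earlier results of these data known. Older array names were updated, among them miR-3107-5p to miR-486-5p. Alternatives covered scaling, background, probe summary, filters, floors, slides, samples, tests and each array left out, 29 in all. Precision is limited by 4 arrays per group. Array replicate numbers were not used to pair samples. The viral miRNAs on the array and the study's other experiments were not analysed here.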

Additional observations from a re-analysis of the deposited data

Results flagged for a closer look

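Among the miRNAs named and the array totals, 75 sets of 4 arrays were examined for a single array far from the others, and 10 had one. Chance gives about 1 in 20. PBS/OVA replicate 2 was that array in 4 of the 10. It measured 8.20 for miR-188-5p against a mean of 5.04 on the other PBS/OVA arrays, 13.30 against 13.69 for miR-30a-5p, 11.76 against 12.26 for miR-30c-5p and 12.55 against 12.99 for miR-29b-3p, all as log2 scaled signal. PBS/OVA replicate 4 measured 7.35 against 6.42 for miR-135b-5p. OVA/OVA DEX replicate 4 measured 6.79 against 7.19 for miR-324-5p, 9.85 against 10.49 for miR-34a-5p and 12.73 against 13.01 for let-7i-5p. OVA/OVA DEX replicate 2 measured 1.54 against 3.79 for miR-877-5p and 3.55 against 4.66 for miR-135a-1-3p. Causes were not tested.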

How the results depend on the processing

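With all arrays, 6 miRNAs passed. The count was 2 with the 75th percentile over all mouse miRNAs, 3 without scaling, 3 with normexp, 0 on slide 1 or slide 2 alone, and 2 with OVA/OVA DEX and PBS/OVA as the sole groups in the fit. By the methods' exact Mann-Whitney test 41 passed unadjusted and 0 after Benjamini-Hochberg, where 59 had an unadjusted p under 0.05 in limma. The 41 are the miRNAs whose arrays did not overlap. They share the smallest p this test allows, 0.0286, which adjusted to 0.185, so group size limits that count. Leaving out each array gave 5 to 10. The 10 came without OVA/OVA DEX replicate 4, where miR-223-3p, miR-29b-3p, miR-30a-5p and miR-503-5p were added. The count with at least 2-fold, 2, became 1 with normexp or those groups alone, 0 on either slide or by the adjusted Mann-Whitney test, and 7 by the unadjusted one. It was also 1 with the processed values, but these covered 151 miRNAs, and miR-135b-5p was not among them. Without PBS/OVA replicate 2, the count of 5 became 1 with the percentile over all, 2 without scaling, with quantile normalization or with array brightness as a covariate, 3 without a detection filter or with slide as a block, and 8 with the total gene signal. It became 0 with normexp, the processed values (151 miRNAs) or those groups alone. The Mann-Whitney test gave 0 adjusted and 1 unadjusted. At that group size no exact Mann-Whitney p can fall under 0.05. The 0 was thus fixed in advance, and the 1 did not come from an exact p. Slide 1 alone then held a single PBS/OVA array, so no count is given for it. Other alternatives kept each count within 1.5 times.

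Replicate numbers did not pair the samples (correlations of deviations 0.05, -0.43, -0.60 and -0.79), and with the replicate block, 0 passed, also at 2-fold, against 2 in the same groups without the block.

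Of the 36 miRNAs named and varied, 24 kept their sign throughout. With normexp the log2 difference turned to 0.0543 for miR-18a-5p, 0.0342 for miR-503-5p, 0.0705 for miR-877-5p, 0.0327 for miR-680, 0.144 for miR-342-5p, 0.106 for miR-449c-5p, 0.0427 for miR-135a-1-3p and 0.0875 for miR-139-3p. MiR-34b-5p turned to -0.0258 without scaling, miR-551b-3p to -0.0402 on slide 1, and miR-126-3p to -0.166 without scaling and -0.000855 on slide 2. Let-7b-5p turned to 0.111 on slide 2 and ranged from -0.122 to 0.0581 with each array left out (0.0497 and 0.0581 without OVA/OVA DEX replicates 1 and 4, 0.0259 without PBS/OVA replicate 4). These causes were not tested. Few arrays and weak signal near background limit the dim miRNAs.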
